A study of Mus musculus with 186 samples.

Results

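The NR4A family of nuclear receptors has 3 genes in the mouse, Nr4a1, Nr4a2 and Nr4a3, and all 3 were taken by symbol from a matrix of 28338 genes. They were followed through 96 bulk RNA-seq libraries at 4 weeks and 90 at 12 weeks of brain tissue from Akap11 mutant mice and wild-type (WT) mice. NR4A proteins are orphan nuclear receptors: they bind DNA and drive transcription without a known hormone ligand, and their activity is set largely by how much of each is made. Nr4a1 (NUR77) and Nr4a3 (NOR1) are immediate early genes in neurons, switched on within minutes by calcium and cyclic AMP through protein kinase A and the transcription factor CREB. Nr4a2 (NURR1) is induced in the same way, and it is also made steadily in a few cell types, above all the midbrain dopamine neurons that need it for their identity, and neurons of the deep cortical layers, claustrum and subiculum.

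Akap11 encodes an anchoring protein that holds protein kinase A and other signalling enzymes, and its loss is studied as a genetic risk factor for schizophrenia and bipolar disorder. The libraries cover 3 genotypes, WT, Akap11 +/- (HET) and Akap11 -/- (KO), at both ages. For each genotype and age, 6 regions were taken from frozen brain in a cryostat: striatum (STR), hippocampus (HP), thalamus (TH), substantia nigra (SN), and the prefrontal (PFC) and somatosensory (SSC) parts of the cortex. Each library was made from 200 ng of total RNA with a stranded mRNA kit. How the mutation was made, and the strain and sex of the mice, are not stated in the labels, and the labels name no treatment. There were 36 groups of region, age and genotype, 30 with 5 libraries and 6 with 6. The labels do not say whether libraries with 1 number in several regions came from 1 mouse, and p-values measure the spread between these libraries. In bulk tissue, fewer cells of a type and less RNA per cell cannot be told apart.

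In the GENCODE annotation of the GRCm38 build, Nr4a1 lies at chr15:101254269-101274795 on the plus strand, Nr4a2 at chr2:57106830-57124003 on the minus strand and Nr4a3 at chr4:48045153-48086447 on the plus strand. The longest transcript of each has 8 exons, and no other annotated gene overlaps any of them. The RefSeq promoters (GRCm38.p6) are shown because CREB, which switches these genes on, binds the cyclic AMP response element. Each is printed 5′ to 3′ on the gene's own strand, starting 250 bases before the annotated start and, for Nr4a1 and Nr4a2, running up to it. Capitals mark the core of that element, TGACG on the printed strand or CGTCA where it lies on the other one. The positions are chr15:101266596-101266845 (+) for Nr4a1, chr2:57124004-57124253 (-) for Nr4a2 and chr4:48045055-48045152 (+) for Nr4a3. For Nr4a3 only the first 98 of the 250 bases searched are printed, because an annotated exon begins after them.
Nr4a1: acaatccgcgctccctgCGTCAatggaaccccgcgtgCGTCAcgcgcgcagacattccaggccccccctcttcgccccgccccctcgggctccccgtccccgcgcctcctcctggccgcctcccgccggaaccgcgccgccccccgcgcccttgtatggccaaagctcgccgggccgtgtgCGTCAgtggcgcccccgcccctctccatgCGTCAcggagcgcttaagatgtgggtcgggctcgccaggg
Nr4a2: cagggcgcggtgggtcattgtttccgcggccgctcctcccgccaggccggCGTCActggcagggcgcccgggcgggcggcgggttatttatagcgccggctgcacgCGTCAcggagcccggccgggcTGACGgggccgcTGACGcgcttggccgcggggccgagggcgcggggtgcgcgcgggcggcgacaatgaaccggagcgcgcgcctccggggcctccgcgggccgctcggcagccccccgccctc
Nr4a3: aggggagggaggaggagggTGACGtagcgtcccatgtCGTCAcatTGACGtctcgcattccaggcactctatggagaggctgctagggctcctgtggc
Within the 250 bases before the start, TGACG occurred 4 times on either strand in each member, and 3 of the 4 sites of Nr4a3 are in the printed stretch. Of 32851 mouse promoters of the same length, 5836 (17.8%) held at least 1 such site and 45 (0.137%) held 4 or more. Of the rapid early genes listed further on, 22 had a promoter in the table and 13 of these held at least 1 site. The full palindrome TGACGTCA was in none of the member promoters and in 1.55% of all. The AP-1 site TGANTCA was likewise in none, against 6.75% of all, and neither was the NR4A monomer element AAAGGTCA, against 1.34% of all. These are letter matches on both strands, and binding was not measured.

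Total expected counts per library ran from 20.8 M to 73.3 M (mean 46.1 M, SD 9.6 M). The lowest expected count of any member in any library was 12, so no member was lost at this depth. Akap11 itself separated KO from the other genotypes in all 12 combinations of region and age, each KO library lying lowest, with 5.08 to 7.98% of the WT mean left. HET libraries were below every WT library in 11 of these 12, the exception being 4-week SN, where Akap11 goes against the label of WT 92. At 44.8 CPM, that library was below the HET range of 97.8 to 139 CPM (n = 6) and above the KO range of 13.5 to 15.9 CPM (n = 5). Levels are given as CPM, expected counts scaled to a common library total after TMM normalisation, and a marker score is the mean log2(CPM + 1) of a list of cell type genes.

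Some 4-week dissections differed within a group, and Nr4a2 moved with them. In 4-week STR, 4 libraries (WT 92, KO 51, KO 161 and KO 163) had 8 or 9 of the 9 listed cortical excitatory neuron genes above every other striatal library. Their summed level of these genes was 755 to 1570 CPM, against 21.9 to 149 CPM in the other 26. In 4-week SN, WT 42, WT 92, KO 44 and KO 91 had 7 or 8 of the 8 listed dopamine neuron genes below all 28 other nigral libraries, with sums of 37.8 to 234 CPM against 1020 to 4960 CPM. None of the 8 dopamine genes was at 0 in any nigral library. In 4-week TH, the library labelled WT 913 had all 7 thalamic markers below the 28 other libraries and 4 of 6 hippocampal markers above them, and WT 914 had all 7 thalamic markers below them too. WT 23 was set aside with them on the basis of earlier results of these data, although here only 1 of its 7 thalamic markers lay below the others. Otherwise each dissection carried its own markers: striatal projection neuron scores were 9.001 or more in STR and at most 7.16 elsewhere. Values without these 11 libraries are given beside some of the results they move, and for others only the number of values that changed sign is given.

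The NR4A genes differed in where they were high (plot of levels by library). By mean level in 12-week WT mice, Nr4a1 was highest in the striatum and prefrontal cortex, Nr4a2 in the substantia nigra and hippocampus, and Nr4a3 in the hippocampus.

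**Figure D1:**
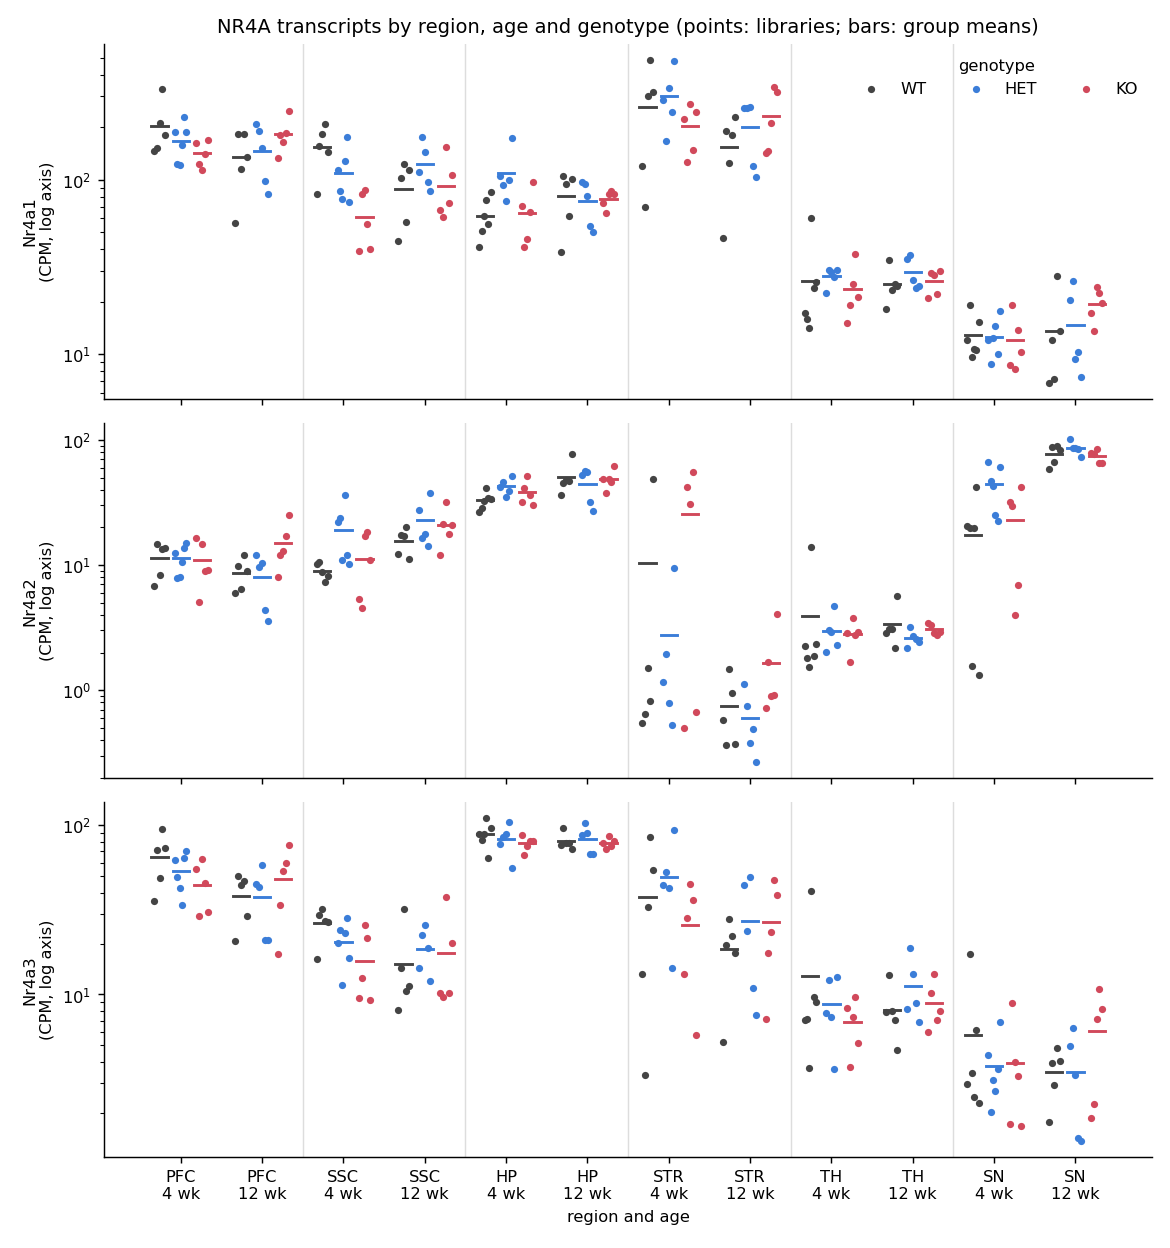
CPM of Nr4a1, Nr4a2 and Nr4a3 (log axis) in each library by region and age, coloured by genotype, with group means as bars. Nr4a2 in 12-week WT falls from 76.9 CPM in SN to 0.751 CPM in STR, while the Nr4a3 libraries of HP stay between 56.1 and 109.9 CPM.

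Nr4a1 had its highest means in striatum and cortex. In 12-week WT STR it stood at 46.4, 125, 180.2, 189.5 and 228 CPM, a mean of 154 ± 70.5 (SD, n = 5). PFC followed at 134 ± 52.8, SSC at 88.2 ± 35.2, HP at 80.2 ± 28.9, TH at 25.3 ± 5.89 and SN at 13.5 ± 8.59 CPM. In the fit without a replicate block 1 step in this order passed the test: HP was above TH by 1.68 ± 0.40 on the log2 scale (SE, edgeR adjusted p = 0.000529), and those libraries did not overlap. The neighbours STR and PFC, PFC and SSC, SSC and HP, and TH and SN did not pass it. PFC against HP was 0.74 ± 0.39 in that fit (edgeR adjusted p = 0.116), so neither cortical region was called above HP. HP against STR was -0.95 ± 0.39 (0.0383). Over all pairs of regions, 9 of 15 were called for Nr4a1 at 12 weeks, against 61.1% of all gene and pair tests. At 4 weeks the order was the same, with 259 ± 167 in STR, 204 ± 75.1 in PFC, 155 ± 47.3 in SSC, 62.0 ± 16.4 in HP, 26.2 ± 17.3 in TH and 12.9 ± 3.66 CPM in SN. There SSC exceeded HP (adjusted p = 0.0047) and HP exceeded TH (0.00616), while TH against SN passed (1.06 ± 0.36, 0.026) and no longer did without WT 913 (0.60, 0.171). It also missed the threshold without SN WT 42, WT 913 or WT 914, at adjusted p = 0.0506 to 0.0609. In all, 12 of 15 pairs were called for Nr4a1 at 4 weeks (11 without the libraries that stood apart), against 45.6% of all gene and pair tests.

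Nr4a2 had the widest range between regions at 12 weeks. In 12-week WT SN, where dopamine neurons lie, its levels were 58.5, 66.8, 82.5, 87.4 and 89.1 CPM, and in 12-week WT STR they were 0.365, 0.374, 0.578, 0.954 and 1.48 CPM. The lowest nigral library was above the highest striatal one by a wide margin, and SN also exceeded HP, with overlap between their libraries. HP held 50.7 ± 15.6, SSC 15.6 ± 3.77, PFC 8.66 ± 2.49 and TH 3.39 ± 1.32 CPM (SD, n = 5 each). Each step in this order was called (adjusted p from 6.64e-07 to 0.0229), and all 15 pairs of regions passed, against 61.1% of all gene and pair tests. The weakest step, SN above HP by 0.60 ± 0.23 on the log2 scale, stayed past the threshold in 3 of 10 fits with 1 library left out. It missed it without HP WT 1, 2, 3 or 4 or without SN WT 2, 4 or 5, with adjusted p up to 0.0742.

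At 4 weeks the order of Nr4a2 was blurred by the libraries named above. With all libraries only 1 of 15 pairs was called, HP above TH by 3.02 on the log2 scale (adjusted p = 0.00496). WT means were 32.9 ± 5.26 in HP, 17.6 ± 15.1 in SN, 11.4 ± 3.53 in PFC, 10.4 ± 21.2 in STR, 9.02 ± 1.39 in SSC and 3.95 ± 4.89 CPM in TH. Without the 11 libraries, 13 of 15 pairs were called, and STR lay 5.21 below HP on the log2 scale (adjusted p = 2.25e-13) and 1.22 below TH (0.00502). The pairs PFC with SSC and HP with SN were not called there. Of all gene and pair tests 45.6% were called with all libraries. The share without the 11 is not given here, so the count of 13 cannot be set beside it.

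Nr4a3 was highest in hippocampus and lowest in thalamus and substantia nigra. In 12-week WT HP it stood at 71.9, 76.9, 78.0, 78.4 and 96.8 CPM, with a mean of 80.4 ± 9.53, above all 5 PFC libraries (38.2 ± 12.5). STR held 18.5 ± 8.37, SSC 15.2 ± 9.54, TH 8.15 ± 3.04 and SN 3.49 ± 1.18 CPM. All steps were called (adjusted p from 0.00706 to 0.0264) except STR against SSC. At 12 weeks 14 of 15 pairs passed, against 61.1% of all gene and pair tests. SSC above TH (0.91 ± 0.35) missed the threshold without SSC WT 3 (0.46, adjusted p = 0.232) and without TH WT 4 or 5. At 4 weeks HP again led with 88.4 ± 15.3 CPM (n = 6), then PFC 64.8 ± 23.1, STR 37.8 ± 32.9, SSC 26.3 ± 6.03, TH 12.9 ± 13.9 and SN 5.78 ± 5.86. No neighbours in that order differed past the threshold, and 8 of 15 pairs did. That count is near the share of all gene and pair tests called, 45.6%. Without the libraries that stood apart 10 pairs were called, and the share for that fit is not given here.

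Per kilobase of the longest transcript the members can be set beside each other. On this scale Nr4a1 led in 12-week WT STR with 60.2 ± 27.6 CPM per kb, against 3.24 ± 1.46 for Nr4a3 and 0.211 ± 0.133 for Nr4a2. In SN the order was turned, with Nr4a2 at 21.5 ± 3.79, Nr4a1 at 5.31 ± 3.36 and Nr4a3 at 0.611 ± 0.206 CPM per kb. In HP the 3 were closer: 31.4 ± 11.3 for Nr4a1, 14.2 ± 4.37 for Nr4a2 and 14.05 ± 1.67 for Nr4a3. Per kilobase of all annotated exons of the gene, the HP levels were 22.9 ± 8.24, 12.5 ± 3.84 and 13.4 ± 1.59 in the same order. Which of Nr4a2 and Nr4a3 was higher in HP thus depends on the length used. These per-length levels were not tested against each other.

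Libraries of 1 group differed by as much as many regions did. The coefficient of variation of Nr4a3 in HP was 6.88 to 21.7% over its 6 groups (median 14.6%), the lowest median of any member and region. In STR it was 45.2 to 87.0% for the same gene, and the highest library of a group exceeded the lowest by 5.3 to 25.4 times. Nr4a1 in STR varied by 30.9 to 64.4%, and in TH by 11.9 to 65.9%. Nr4a2 varied most in STR, by 57.1 to 205%, with a ratio of highest to lowest library of up to 112 in 4-week KO. Group means of these genes therefore carry wide errors in STR, and narrow ones for Nr4a3 in HP.

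The spread of Nr4a2 in STR and SN went with marker genes (plot of Nr4a2 against marker scores). In 4-week STR the WT libraries held 0.545, 0.647, 0.819, 1.51 and 48.4 CPM, the last being WT 92. KO held 0.497 and 0.666 in KO 12 and KO 932, and 30.5, 41.8 and 55.7 CPM in KO 163, KO 161 and KO 51. In HET, 4 libraries were between 0.523 and 1.94 CPM and HET 931 stood at 9.46. The same 5 high libraries had the highest cortical excitatory scores, 4.70 in WT 92, 4.84 in KO 163, 5.78 in KO 161, 5.44 in KO 51 and 3.12 in HET 931, against 1.23 to 2.46 in the other 10. At 12 weeks the scores of STR were 1.11 to 1.58, and the highest of these belonged to KO 5, which also had the highest Nr4a2 at that age, 4.07 CPM. Excitatory cortical and claustral neurons are known sites of Nr4a2. What share of the difference between striatal libraries they carry was not tested.

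**Figure D2:**
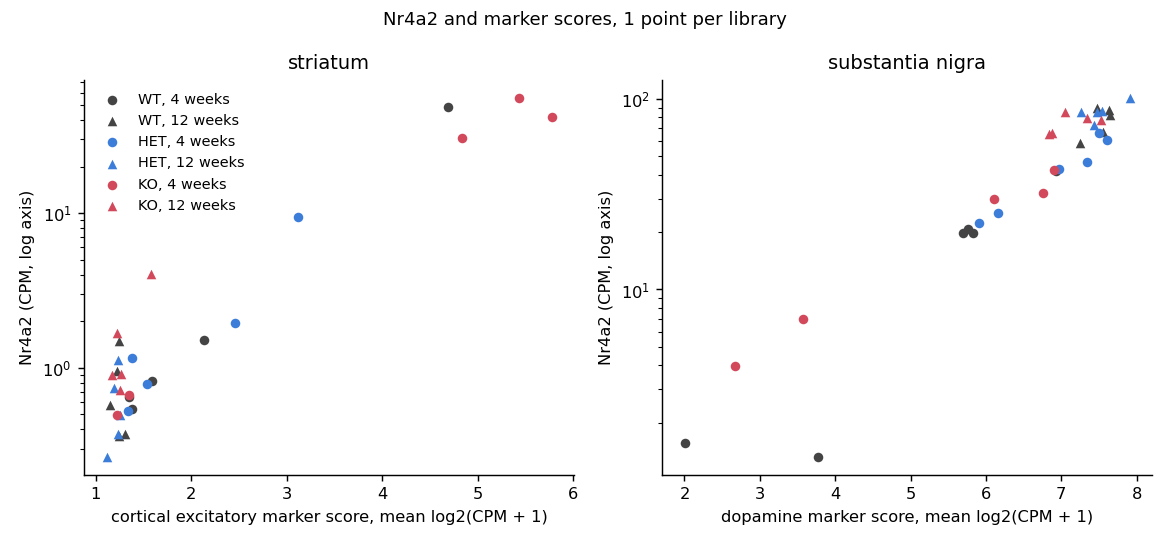
Nr4a2 (CPM, log axis) against the cortical excitatory marker score in STR and the dopamine marker score in SN, 1 point per library, circles at 4 weeks and triangles at 12 weeks. In STR 5 libraries with scores of 3.12 to 5.78 hold 9.46 to 55.7 CPM, and in SN 4 libraries with scores of 2.00 to 3.77 hold 1.32 to 6.96 CPM.

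In SN the partner score was that of dopamine neurons. At 4 weeks WT 92, WT 42, KO 44 and KO 91 held 1.32, 1.57, 3.99 and 6.96 CPM of Nr4a2, and the 13 other libraries held 19.8 to 66.2 CPM. Their dopamine scores were 3.77, 2.00, 2.67 and 3.58, against 5.70 to 7.60 in the others. WT 42 and KO 91 had 5 of 7 thalamic markers above all 28 other nigral libraries, and WT 92 and KO 44 had 5 and 4 of 6 oligodendrocyte markers above them. At 12 weeks all 15 nigral libraries held 58.5 to 101 CPM, and no dopamine score was below 6.84. The 4 libraries lowest in Nr4a2 were also the 4 lowest in dopamine score, and the part of other tissue in their levels was not tested. The score does not include Nr4a2. With the libraries that stood apart left out and group means removed, Nr4a2 still correlated with the dopamine score over 28 nigral libraries (r = 0.916, rho = 0.84, permutation within groups, both p = 1e-05, the smallest that 100000 permutations can give, adjusted p = 2e-05 over 2 relations). Without the 2 libraries farthest from the median score r was 0.865. Over 26 striatal libraries the correlation with the cortical score was r = 0.824 (permutation p = 8e-04, adjusted 8e-04) and rho = 0.685 (p = 0.00216, adjusted 0.00216), and r was 0.594 without the 2 farthest. These 2 relations were picked among the regions and scores with the pattern above known, and the adjustment does not count that choice.

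In SSC, Nr4a2 varied with striatal and claustral genes. Over 31 SSC libraries with group means removed, its median r was 0.627 with 10 striatal projection neuron genes (9 above 0.5) and 0.591 with 11 claustrum and layer 6b genes (7 above 0.5). With 6 oligodendrocyte genes it was 0.555. The striatal score was 6.265 in 4-week HET 162 and 7.16 in HET 93, which held 23.8 and 36.04 CPM of Nr4a2, and 3.99 to 5.10 in the other 4-week libraries. At 12 weeks it was 6.18 in HET 5, which held the highest Nr4a2 of that age (37.8 CPM), and at most 4.68 elsewhere. The part of other tissue in these levels was not tested.

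The thalamus had 1 library that stood out for all members. WT 913 at 4 weeks held 60.3 CPM of Nr4a1, 13.9 of Nr4a2 and 41.0 of Nr4a3. The 5 other WT libraries held at most 25.8, 2.32 and 9.61 CPM. Its cortical excitatory score was 5.34 and its hippocampal score 6.53, and the part of these cells in its levels was not tested. Elsewhere in TH, Nr4a2 lay between 1.54 and 5.65 CPM in all 30 other libraries.

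Between 4 and 12 weeks in WT mice, 3 of 18 member comparisons passed the test, and they did not share a direction. Libraries of different ages come from different animals, so age and library handling cannot be told apart. Nr4a1 in SSC fell from 82.5, 145, 155, 183 and 208 CPM to 44.3, 57.4, 102, 114 and 123 CPM, a log2 change of -0.81 ± 0.27 (SE, edgeR adjusted p = 0.0425), with overlapping libraries. In the same tissue Nr4a2 rose from 7.31, 8.13, 8.82, 10.2 and 10.6 CPM to 11.1, 12.2, 17.2, 17.3 and 20.1 CPM, by 0.79 ± 0.15 on the log2 scale (adjusted p = 0.00266), and here the ages did not overlap. Claustrum and layer 6b scores in these WT libraries were 3.17 to 3.33 at 4 weeks and 3.14 to 3.39 at 12 weeks, and striatal scores 4.11 to 5.10 and 4.00 to 4.10. Nr4a2 also rose in HP, from a range of 26.3 to 41.5 CPM (median 33.2, n = 6) to 36.2, 44.9, 47.2, 47.7 and 77.3 CPM, by 0.63 ± 0.17 (adjusted p = 0.0300). Among all genes 22.8% were called between ages in SSC, 12.9% in HP, 13.8% in PFC, 13.6% in STR, 14.3% in TH and 4.24% in SN. With 2 of 3 members called in SSC, 1 of 3 in HP and none in the other 4 regions, no region gave a count that could be read apart from these shares.

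The rise of Nr4a2 in SSC held in 10 of 10 fits with 1 library left out. That in HP held in 6 of 11 and was lost without 12-week WT 3 or 4 or 4-week WT 142, 23 or 42 (adjusted p = 0.0505 to 0.0589). The fall of Nr4a1 in SSC held in 3 of 10, and was lost without 12-week WT 1, 2 or 4 or 4-week WT 23, 913, 914 or 92 (adjusted p = 0.0579 to 0.0983). Nr4a3 had negative values in the cortex that missed the threshold, -0.79 ± 0.29 in SSC (adjusted p = 0.0655) and -0.76 ± 0.26 in PFC (0.0682). In SSC this passed without 12-week WT 3 (-1.25, 0.000739) or 4-week WT 142 (-0.92, 0.0469), and in PFC without 4-week WT 142 (-0.92, 0.0318) or WT 913 (-0.85, 0.0489). Nr4a3 in HP stayed near its level, at -0.13 ± 0.12 (interval -0.39 to 0.13).

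In SN the Nr4a2 libraries did not overlap between ages, at 1.32 to 42.0 CPM (median 19.8, n = 6) and 58.5 to 89.1 CPM. The difference was 2.15 ± 0.69 (edgeR adjusted p = 0.101). DESeq2 called it with all libraries (2.14, 0.0136), and in edgeR it was 1.59 (0.00125) without WT 42 and WT 92, whose dopamine scores were low, and 1.90 (0.0308) without the library labelled WT 92 alone. The dopamine score itself was 5.70 to 6.93 in the 4 other WT libraries at 4 weeks and 7.24 to 7.64 at 12 weeks, so Nr4a2 and the other dopamine neuron genes differed between ages together. In STR the value for Nr4a2 was -3.74 ± 1.26 (adjusted p = 0.0694), and -0.23 without WT 92. In TH it was -0.25 ± 0.60, and 0.79 (adjusted p = 0.0496) without WT 913. Without all the libraries that stood apart, 3 of the 9 age values of the members in STR, TH and SN changed sign. These had sizes of up to 0.72.

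Loss of Akap11 left no call on any NR4A gene. In KO against WT, 0 of 36 member comparisons (3 members in 12 sets of region and age) passed the threshold of 0.05 in the edgeR quasi-likelihood test, with a lowest adjusted p of 0.11, and 4 of 36 had an unadjusted p under 0.05. DESeq2 called 1 of these. KO and WT libraries overlapped in all 36, where 1.52% of all gene and set tests showed no overlap. For all genes the shares called at 4 weeks were 0.0125% in PFC, 0.0564% in SSC, 0.00609% in HP, 3.35% in STR, 0.0128% in TH and 0.00617% in SN. At 12 weeks they were 0.0123% in PFC, 0.0252% in SSC, 0.00608% in HP, 4.42% in STR, 0.0064% in TH and 0.0364% in SN. With 3 members, counts of 0 are near all of these shares, STR included (plot of KO against WT).

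**Figure D3:**
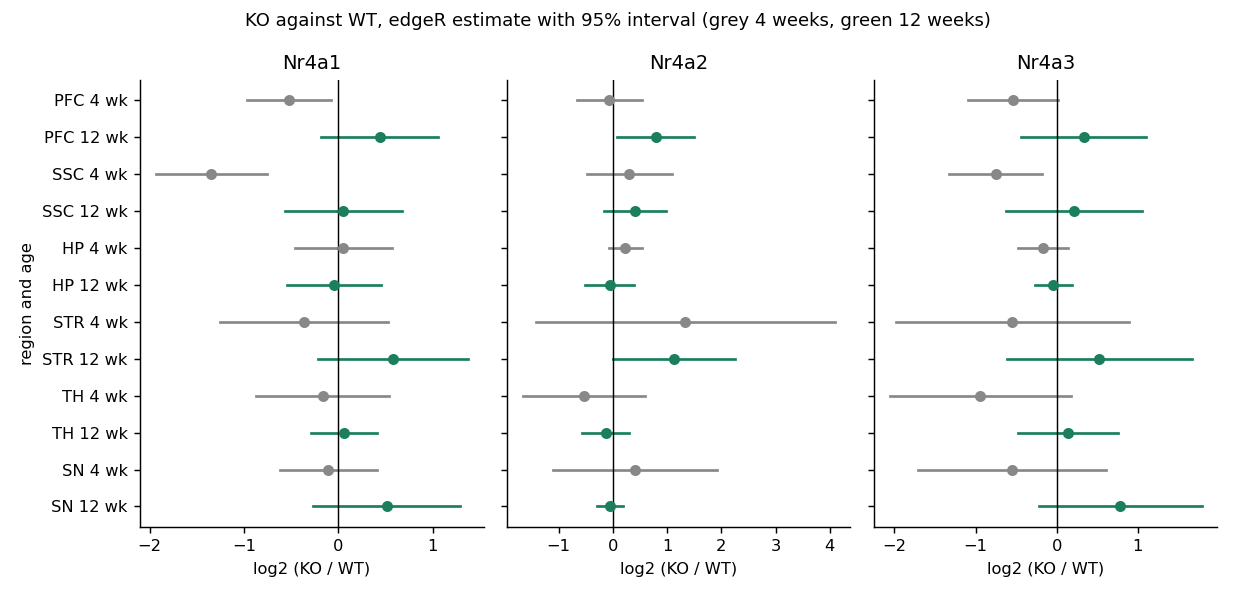
Log2 fold change of KO against WT from edgeR for each member (points) with 95% intervals (lines), by region and age, grey at 4 weeks and green at 12 weeks. Nr4a1 in 4-week SSC lies lowest at -1.35 (-1.93 to -0.76), and the intervals of Nr4a2 and Nr4a3 are narrowest in 12-week SN and HP.

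The closest to a call was Nr4a1 in 4-week SSC. KO libraries held 38.9, 40.1, 55.5, 83.2 and 87.0 CPM, WT libraries 82.5, 145, 155, 183 and 208 CPM, and HET libraries 74.6 to 176 CPM (median 99.8, n = 6). All KO libraries except KO 161 and KO 163 were below the lowest WT library, WT 142. The log2 fold change was -1.35 ± 0.28 (interval -1.93 to -0.76, fold 0.393), with an edgeR adjusted p of 0.11. It passed without WT 142 (-1.50, adjusted p = 0.0183) and with DESeq2 (-1.35, 0.0136), and the adjusted p ran from 0.0183 to 0.442 over 10 fits with 1 library left out. Nr4a3 in the same libraries was 9.34, 9.52, 12.5, 21.6 and 25.6 CPM in KO against 16.1, 26.9, 27.2, 29.4 and 31.9 CPM in WT, a log2 value of -0.75 ± 0.28 (adjusted p = 0.844). Nr4a2 was positive there, at 0.30 ± 0.37 (adjusted p = 1). At 12 weeks the SSC values were 0.05 ± 0.29 for Nr4a1 and 0.21 ± 0.40 for Nr4a3, with wide overlap. The difference between ages was 1.41 ± 0.43 for Nr4a1 (edgeR adjusted p = 1). No gene passed this interaction test in any region (0% of 98669 tests), and 0 of 18 member tests did, with 2 at an unadjusted p under 0.05.

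Other genes of the immediate early response in 4-week SSC lay the same way (plot of somatosensory cortex). Of 28 rapid early genes 25 had a negative KO against WT value, with a median of -0.51, while 47.7% of all 15945 genes tested were negative and their median was 0.005. Arc, a synaptic protein gene, held 63.1, 91.4, 119, 122 and 211 CPM in KO and 213, 455, 473, 477 and 794 CPM in WT, and these did not overlap. It was 1.99 lower on the log2 scale (adjusted p = 0.0223), and Trib1, a pseudokinase, and Dusp5, a phosphatase of ERK, were called lower too (-1.05, 0.0451, and -0.98, 0.0325). Egr2, a zinc finger factor, was -2.10 ± 0.53 (adjusted p = 0.309). So 3 of the 28 were called, where 0.0564% of all genes were. This count of 3 became 0 when WT and KO alone were fitted, 9 with DESeq2 and 11 without WT 142. It was 0 without each of WT 23, WT 92, WT 913, WT 914, KO 12, KO 51 or KO 932, 1 without KO 161 and 4 without KO 163.

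**Figure D4:**
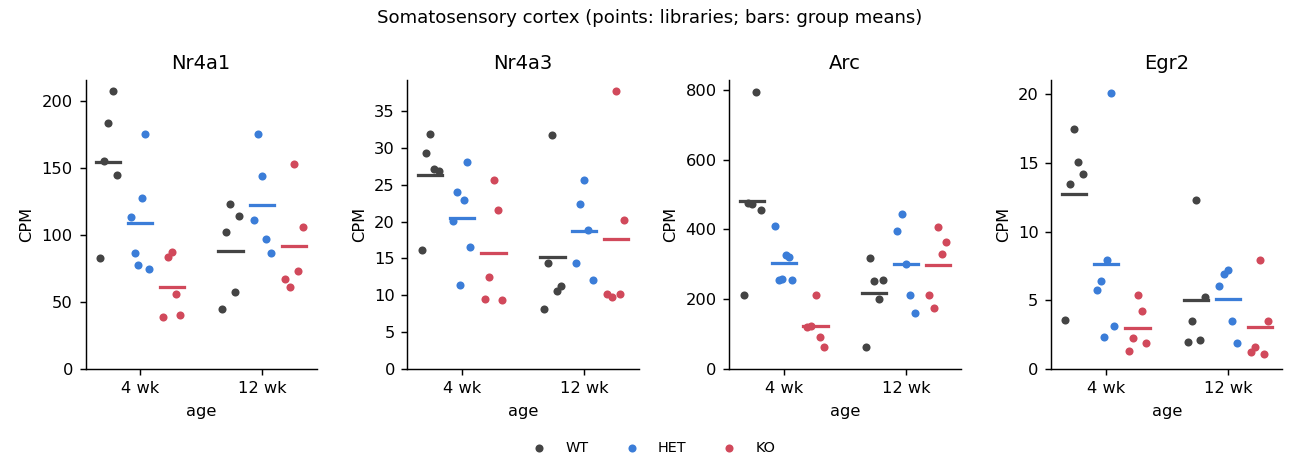
CPM of Nr4a1, Nr4a3, Arc and Egr2 in each SSC library (points) with group means (bars), by age and genotype. At 4 weeks the KO libraries of Nr4a1 lie between 38.9 and 87.0 CPM and the WT libraries between 82.5 and 208 CPM, and at 12 weeks the genotypes overlap.

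In PFC, Nr4a1 and Nr4a3 were negative at 4 weeks too, with smaller values. Nr4a1 was 114, 123, 141, 163 and 169 CPM in KO and 146, 152, 180.1, 211 and 329.8 CPM in WT, -0.52 ± 0.21 (unadjusted p = 0.0243, adjusted p = 0.276). Nr4a3 was -0.54 ± 0.26 (adjusted p = 0.337) and Nr4a2 -0.07 ± 0.28 (0.922). At 12 weeks Nr4a2 held 8.06, 12.0, 12.9, 17.1 and 25.0 CPM in KO and 5.97, 6.48, 8.92, 9.91 and 12.0 CPM in WT, 0.79 ± 0.34 (unadjusted p = 0.0316, adjusted p = 0.987), with Nr4a1 at 0.44 ± 0.29 and Nr4a3 at 0.33 ± 0.36. Rapid early genes were negative in 22 of 28 at 4 weeks (median -0.34) and in 3 of 28 at 12 weeks (median 0.32), and none was called at either age.

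Nr4a3 had its narrowest intervals in hippocampus at 12 weeks. In HP, KO against WT was -0.17 ± 0.14 at 4 weeks (interval -0.47 to 0.13) and -0.04 ± 0.11 at 12 weeks (-0.27 to 0.19), so fold changes below 0.83 or above 1.14 lay outside the 12-week interval. KO libraries held 72.3, 75.7, 78.6, 80.1 and 86.8 CPM at that age. Nr4a1 was 0.05 ± 0.24 and -0.05 ± 0.24 at the 2 ages, and Nr4a2 0.23 ± 0.14 and -0.06 ± 0.21.

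In STR, where most genes called in KO against WT were found, the members showed no call and wide intervals. Nr4a1 at 12 weeks held 143, 147, 210.3, 319.5 and 339 CPM in KO against 46.4, 125, 180.2, 189.5 and 228 CPM in WT, 0.58 ± 0.38 (interval -0.22 to 1.38, adjusted p = 0.509). At 4 weeks it was 126, 148, 223, 243 and 271 CPM against 70.03, 119.7, 303, 319.7 and 484 CPM, -0.36 ± 0.42 (adjusted p = 0.719), or -0.09 without the 4 striatal libraries that stood apart. Nr4a3 at 4 weeks was -0.55 ± 0.68 (adjusted p = 0.740), or -1.85 (0.359) without them, with KO at 5.75, 13.3, 28.5, 36.2 and 44.8 CPM and WT at 3.36, 13.2, 33.0, 54.3 and 85.1 CPM. At 12 weeks Nr4a3 was 0.53 ± 0.54 (0.729).

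Nr4a2 in 4-week STR had no stable value. With all libraries it was 1.33 ± 1.30 (interval -1.43 to 4.09, adjusted p = 0.659), without WT 92 alone 4.88 (adjusted p = 0.0441), without all 4 libraries that stood apart -0.60 (0.812), and with the cortical score as a covariate -0.82 (0.221). At 12 weeks, where the cortical score was low throughout, it was 0.718, 0.901, 0.910, 1.67 and 4.07 CPM in KO against 0.365 to 1.48 CPM in WT, 1.13 ± 0.53 (unadjusted p = 0.0503, adjusted p = 0.315). Without KO 5 this was 0.47 (0.764). The KO effect in STR was also tested against the average KO effect elsewhere. Of the 3 members 0 were called at 4 weeks, against 3.52% of all genes, and 0 at 12 weeks, against 3.11%. The value for Nr4a2 was 1.24 ± 0.80 at 4 weeks (adjusted p = 0.542). It was 4.80 (7.48e-05) without STR WT 92 alone, a fit that kept the KO libraries high in cortical genes. Without all the libraries that stood apart, 0 of the 3 members were called at 4 weeks. There 2 of the 3 values changed sign, with sizes of up to 1.38. At 12 weeks the value for Nr4a2 was 0.96 ± 0.47 (0.374, or 0.26 and 0.953 without KO 5).

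In TH and SN the intervals were wide at 4 weeks and closed around 0 for Nr4a2 at 12 weeks. Nr4a2 in 12-week SN was -0.05 ± 0.11 (interval -0.29 to 0.19), with KO at 65.6, 65.9, 77.3, 79.2 and 85.3 CPM. At 4 weeks it was 0.41 ± 0.71 with all libraries, 0.46 without the 4 that stood apart, and 0.17 without the library labelled WT 92. Nr4a3 in 4-week TH was -0.94 ± 0.53 (adjusted p = 0.424), and 0.06 without WT 913, 914 and 23. In 12-week SN Nr4a1 was 0.51 ± 0.37 and Nr4a3 0.78 ± 0.48 (adjusted p = 0.923 and 0.875).

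HET animals gave no call either. In HET against WT 0 of 36 passed (lowest adjusted p = 0.548), against 0.00521% of all tests, and in KO against HET 0 of 36 (lowest 0.157), against 0.711%. The 2 comparisons with WT share the WT libraries. Unadjusted p-values under 0.05 numbered 3 and 6. For Nr4a2 in 4-week SSC, HET held 10.2 to 36.04 CPM (median 17.2, n = 6), KO 4.58 to 18.2 and WT 7.31 to 10.6 CPM, a HET against WT value of 1.09 ± 0.36 (adjusted p = 0.789). It was 0.62 ± 0.34 (0.947) without HET 93 and HET 162, the libraries high in striatal markers. With all libraries, all 11 claustrum and layer 6b genes were positive in this comparison (median 0.20), where 47.9% of all genes were negative. That list was not refitted without HET 93 and HET 162. Nr4a1 in 4-week HP held 75.5, 93.6, 99.3, 104 and 173 CPM in HET and 41.4 to 85.0 CPM in WT (median 58.9, n = 6), 0.82 ± 0.24 (0.637).

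With all libraries, the sign of the KO against WT value differed mainly by age for Nr4a1 and Nr4a3. At 4 weeks Nr4a3 was negative in 6 of 6 regions and Nr4a1 in 5 of 6, and at 12 weeks both were positive in 5 of 6. Of 14734 genes tested in every region at 4 weeks, 14.0% were negative in 5 or 6 regions and 2.92% in 6. Of 14709 at 12 weeks, 14.5% were positive in 5 or 6. For the difference between ages Nr4a3 was positive in 6 of 6 regions, as were 3.49% of genes. Nr4a2 was negative in 2 of 6 regions at 4 weeks and in 3 of 6 at 12. Without the libraries that stood apart, Nr4a3 in 4-week TH was no longer negative. Over all members and the 3 genotype pairs in 4-week STR, TH and SN, 9 of 27 values then changed sign. Regions may share mice, none of these values was called, and the signs were not tested together.

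Over all regions together, within-group correlations with immediate early genes were highest for Nr4a1 and lowest for Nr4a2, and single regions differed from this (plot of correlations with early genes). Correlations are Pearson's r of log2(CPM + 1) over all libraries after each group's mean was subtracted; libraries share depth and possibly mice, so r is a description. Of 28 rapid early genes, 14 had r above 0.5 with Nr4a1 (median 0.474), 8 with Nr4a3 (median 0.389) and none with Nr4a2 (median 0.142). Without the 11 libraries that stood apart the medians were 0.516, 0.402 and 0.186. In PFC 16 of 28 were above 0.5 with Nr4a2, beside 15 with Nr4a3. In HP it was 0.332 for Nr4a2 and 0.064 for Nr4a3, which had 1 of 28 above 0.5. For Nr4a1 the highest were Junb, an AP-1 subunit (0.760), Egr4 (0.741) and Egr2 (0.721), and for Nr4a3 Fosl2, another AP-1 subunit (0.808). Npas4, an early gene tied to calcium influx, was at 0.220 with Nr4a1 and -0.143 with Nr4a3. The members correlated with each other at 0.674 (Nr4a1 and Nr4a3), 0.458 (Nr4a2 and Nr4a3) and 0.224 (Nr4a1 and Nr4a2), or 0.706, 0.382 and 0.316 without the libraries that stood apart. By region, Nr4a1 with Nr4a3 ran from 0.234 in HP to 0.791 in SSC (0.838 in STR without the libraries that stood apart), and Nr4a2 with Nr4a3 from 0.127 in HP to 0.843 in PFC. In TH, Nr4a2 with Nr4a3 was 0.543 with all libraries and -0.05 without those that stood apart.

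**Figure D5:**
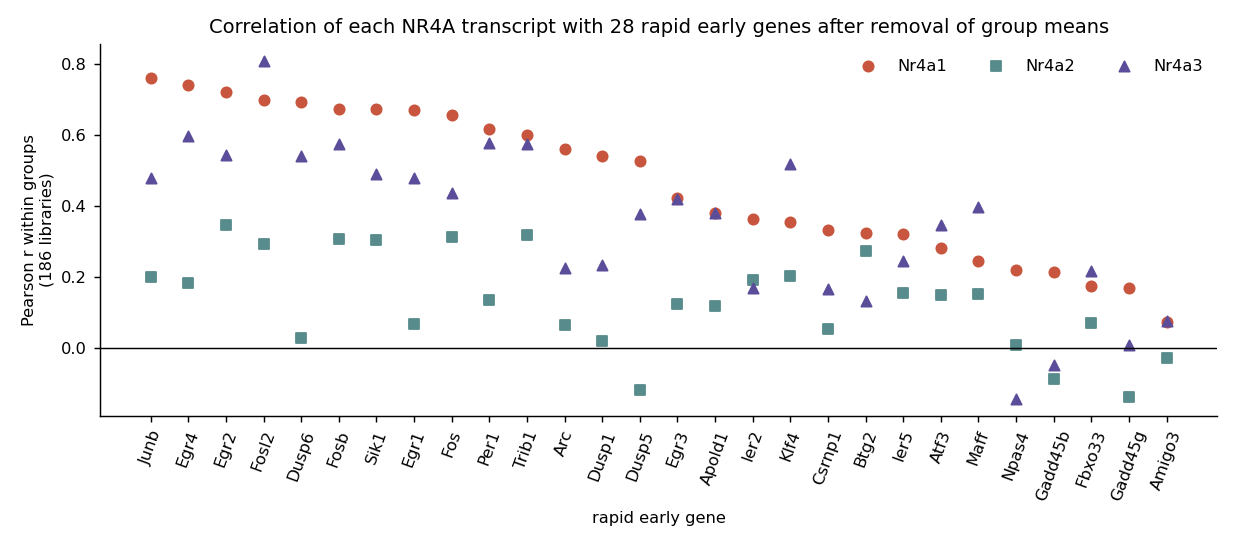
Pearson r of each NR4A transcript with 28 rapid early genes over all libraries after removal of group means, ordered by r with Nr4a1. Nr4a1 reaches 0.760 with Junb and Nr4a3 0.808 with Fosl2, while all values of Nr4a2 are below 0.5.

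The genes most like each member were sought among 14089 genes with an average of at least 1 CPM. Over libraries within groups, the 5 nearest Nr4a1 were Junb, Egr4, Egr2, Midn and Fosl2 (0.760 to 0.699), of which 4 remained among the first 5 without the libraries that stood apart. Nearest Nr4a3 were Fosl2 (0.808), Bcl6, a transcriptional repressor (0.684), Midn (0.680), Nr4a1 (0.674) and Egr4 (0.597), of which 3 remained. Nearest Nr4a2 were Bmp3 (0.771), Cadps2 (0.769), Rspo2 (0.748), 3110035E14Rik (0.742) and Gm2824 (0.731), and none of these remained. In their place came Prss12 (0.516), Oprk1, the kappa opioid receptor (0.489), Npbwr1 (0.444), Sstr2 (0.442) and Adrbk2 (0.438), all with lower r. At 12 weeks alone the nearest were Egr2 (0.58), Sstr2 (0.484), Fos (0.478), Taf5 and Fosb (0.454), again with none shared. Over the 36 group means, which mainly rank regions, the nearest were Dpf1 for Nr4a1 (0.968), Chrna5, a nicotinic receptor subunit, for Nr4a2 (0.922) and Rlf for Nr4a3 (0.959). After these came Celf5, Hnrnpll, Rbm24 and Socs7 for Nr4a1, Rxfp3, Fgf10, Zfpm2 and Dmrta2 for Nr4a2, and Mtmr1, Prkce, Tmem136 and E2f3 for Nr4a3. Of each 5, group means of WT alone kept 1, 2 and 3, and those at 12 weeks alone kept 0, 1 and 2.

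In STR, Egr2 was the early gene with the lowest KO against WT value at both ages. It held 0.993, 3.33, 4.30, 4.75 and 5.24 CPM in 4-week KO STR and 22.2, 30.9, 38.0, 55.2 and 70.2 CPM in WT. Every KO library was below every WT library, and again at 12 weeks (0.968 to 6.17 against 10.2 to 35.3 CPM). The log2 change of Egr2 was -3.53 ± 0.39 in the younger mice (adjusted p = 8.54e-05) and -2.99 ± 0.45 in the older (0.000975), a call kept in all fits with 1 library left out. Of the 28 rapid early genes, 2 were called lower and none higher at 4 weeks (median 0.07, 12 negative). Over all genes 3.35% were called and the median was -0.002. Without the libraries that stood apart 1 of the 28 was called, and their median was -0.14 with 17 negative. At 12 weeks, where 4.42% of all genes were called, 2 of the 28 were lower and 1 higher (median 0.29, 11 negative). Besides Egr2 these were Egr1 at 4 weeks (-0.89, adjusted p = 0.0463), and Ier5 (-0.32, 0.0272) and Apold1 (1.58, 0.0356) at 12 weeks. Egr1 was called in 3, Ier5 in 5 and Apold1 in 3 of 10 fits with 1 library left out. Egr1 was lost without WT 913, 914 or 92 or KO 932, 51, 161 or 163, Ier5 without KO 2 or 5 or WT 1, 2 or 4, and Apold1 without KO 3, 4 or 5 or WT 1, 2, 3 or 4.

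Among the other lists, later activity-induced genes held the most calls in STR. Of 18 later activity-induced genes, 2 were lower and 1 higher in 4-week KO STR, and 4 lower and 1 higher at 12 weeks, where 3.35% and 4.42% of all genes were called, with medians of 0.01 and -0.03. Inhba, a subunit of activin, fell from 8.36 to 3.29 CPM in 4-week STR (-1.34 ± 0.18, adjusted p = 0.000607) and from 8.69 to 3.23 CPM in 12-week STR (-1.44 ± 0.20, 0.000492). Pcsk1, a prohormone convertase, rose by 1.03 ± 0.20 at 4 weeks (0.009), and at 12 weeks Rgs4 (-0.86, 0.00109), a regulator of G protein signalling, and Cdkn1a (-0.75, 0.0143), a cell cycle inhibitor, fell. Homer1 at 4 weeks and Rasgrp1 and Rgs2 at 12 weeks were the other genes called. Among 17 genes of CREB and its cofactors, 1 was lower and 1 higher in STR at 4 weeks and none at 12: the coactivator Crebbp fell by 0.32 ± 0.05 (0.00335), and Crem rose by 0.48 ± 0.09 (0.00637). In 12-week SSC, 15 of the 17 were negative (median -0.06), where 52.1% of all genes were. There 1 was called lower, Prkar1a, a regulatory subunit of protein kinase A, against 0.0252% of all genes. In the other sets of region and age, from 4 (12-week STR) to 11 (4-week SSC and TH) of the 17 were negative. The list's median was 0.11 in 4-week STR and 0.02 at 12 weeks.

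Of 14 MEF2 and SRF activators tested of 15 listed, Elk1, an ETS partner of SRF, fell in STR at both ages, by 0.56 ± 0.08 (adjusted p = 0.00135) and 0.47 ± 0.09 (0.00661). Ppp3ca, the catalytic subunit of calcineurin, fell by 0.34 ± 0.07 at 12 weeks (0.0123), and the list's medians were 0.007 and -0.01. The list held 1 call at 4 weeks and 2 at 12 weeks, where 3.35% and 4.42% of all genes were called. Of 10 partners and corepressors of the NR4A proteins, which include the retinoid X receptors, Rcor2, a CoREST corepressor, was the 1 called in STR. It rose by 0.71 ± 0.15 at 4 weeks (0.0152), kept in 10 of 10 fits with 1 library left out. At 12 weeks it was 0.56 ± 0.15 (0.0486), kept in 2 of 10 and lost without KO 1, 2, 3 or 4 or WT 1, 2, 4 or 5. The median of the 10 was -0.03 and -0.02, and their 1 call at each age stands beside the same shares of all genes.

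Lists for the cells that make Nr4a2 steadily gave these values. All 14 midbrain dopamine neuron genes were negative in 12-week KO SN, with a median of -0.39 against -0.005 over all genes, and none was called. In 4-week SN 2 of 14 were negative (median 0.30), and none was without the libraries that stood apart (median 0.45). Of 13 claustrum and layer 6b genes, 11 were in the matrix. In STR, Gnb4, a G protein subunit, rose, by 0.76 ± 0.14 in the younger mice (adjusted p = 0.00654, or 0.62 and 0.0645 without the libraries that stood apart) and by 1.28 ± 0.16 in the older (0.000131). Nxph4, a neurexophilin, fell by 1.42 ± 0.26 at 12 weeks (0.00368), from 1.96 ± 0.436 to 0.737 ± 0.262 CPM (SD, n = 5). At 4 weeks, where cortical genes differed between libraries, the list's median was 0.76 with all libraries and -0.24 without those that stood apart, and at 12 weeks it was 0.18. With all libraries, no gene of these 2 lists besides Gnb4 and Nxph4 was called in STR, where 3.35% and 4.42% of all genes were called at the 2 ages.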

How the data were processed

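Bulk RNA from 6 brain regions was measured in 96 libraries at 4 weeks and 90 at 12 weeks. The deposited matrix holds expected counts per gene made by the authors, of which 77.9% of the values above 0 are not whole (tolerance 1e-06). Salmon and the mm10 build are named per the submitters' processing notes. Their roles and versions, and whether strand was used, are not stated there. Expected counts were rounded to whole numbers and totalled 20.8 M to 73.3 M per library.

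Genes were filtered with filterByExpr, scaled by TMM and tested with edgeR's quasi-likelihood test (edgeR 4.0.16, limma 3.58.1, R 4.3.3), with Benjamini-Hochberg adjustment over all genes tested and a threshold of 0.05. Genotypes were compared in a fit of the 3 genotypes of 1 region and age, ages in WT libraries of 1 region, and regions in WT libraries of 1 age. DESeq2 1.42.0, other scaling, no filter, a replicate block, covariates and left-out libraries were the alternatives. Levels are CPM with TMM over all libraries. The edgeR fit was tried on simulated counts for KO against WT in 4-week SSC, and the other comparisons were not. Intervals are 95% intervals.

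The NR4A genes, the gene lists and the 11 libraries set aside were chosen with earlier results of these data known. Named genes were the members, up to 4 per list (called at most ages in KO against WT in STR, then by size), and the 5 genes most correlated with each member. Arc, Trib1, Dusp5, Prkar1a, Homer1, Rasgrp1, Rgs2 and Npas4 were added after their values were seen.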

Additional observations from a re-analysis of the deposited data

Results flagged for a closer look

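Of 108 combinations of a group and an NR4A gene, 11 held a library far from the others of its group by Dixon's criterion. Chance alone marks about 1 group in 20 where values are normally distributed, which was not checked for these CPM. All 11 marked libraries lay above the others of their group. In 4-week TH, WT 913 was marked for all members, with Nr4a1 at 60.3 CPM (others 14.2 to 25.8), Nr4a2 at 13.9 CPM (others 1.54 to 2.32) and Nr4a3 at 41.0 CPM (others 3.68 to 9.61). Nr4a2 was marked in STR for 4-week WT 92 at 48.4 CPM (others 0.545 to 1.51), 4-week HET 931 at 9.46 CPM (others 0.523 to 1.94) and 12-week KO 5 at 4.07 CPM (others 0.718 to 1.67). It was also marked for WT 5 at 12 weeks in HP, at 77.3 CPM (others 36.2 to 47.7), and in TH, at 5.65 CPM (others 2.18 to 3.11). Nr4a3 was marked for 12-week SSC WT 3 at 31.8 CPM (others 8.05 to 14.4), 12-week HP WT 2 at 96.8 CPM (others 71.9 to 78.4) and 4-week SN WT 23 at 17.4 CPM (others 2.27 to 6.15).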

How the results depend on the processing

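The count of members called in KO against WT was 1 with DESeq2 and 0 with edgeR under the following settings. Other scaling and no filter were run for all 108 genotype values. The replicate block was run for 54, in the older mice only, and the cortical score as a covariate for 18, in STR. A covariate for the 16 libraries with under 10% whole values (SSC WT 142 and STR WT 92 among them) was run for 54. Leaving out the libraries that stood apart was run for 27, in 4-week STR, TH and SN. The replicate block, the cortical score and this removal therefore did not test Nr4a1 in 4-week SSC, the closest to a call. The count of members called ran from 0 to 1 with 1 library left out, being 1 without 4-week SSC WT 142 or STR WT 92. The count for STR minus the other regions at 4 weeks also ran from 0 to 1. HET against WT, KO against HET and the difference between ages stayed at 0 in every alternative run. The covariate for the 16 libraries turned the sign of 6 of 54 uncalled genotype values. Age calls numbered 3 with edgeR and 4 with DESeq2. DESeq2 gave no adjusted p for 11 member comparisons.

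The number of region pairs called for Nr4a2 at 4 weeks, 1 of 15, was 2 with the replicate block, 13 without the libraries that stood apart, and 1 to 6 with 1 library left out (2 without SN WT 42 or SN WT 92, 5 without TH WT 913, 6 without STR WT 92). For Nr4a2, SSC against STR turned from -0.20 to 3.37 without the libraries that stood apart and ran from -0.51 to 3.36 with 1 library left out (3.36 without STR WT 92). STR against TH turned from 1.38 to -1.22 without the former and ran from -2.17 (without STR WT 92) to 2.44 with 1 left out. The age difference in TH ran from -0.52 to 0.79, the latter without WT 913. The cause was not tested beyond these removals.

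Replicate numbers are not stated to pair libraries. At 12 weeks, 62 of 90 same-numbered pairs of genotypes had r above 0.1 (median 0.166, from -0.275 to 0.749). Pairs of genotypes with different numbers were not compared, so this cannot show pairing or its absence. Between regions in 12-week WT, 50 of 75 same-numbered pairs were above 0.1 (median 0.135) and 47 of 300 with different numbers (median -0.04), a hint from the data that the labels do not state. The replicate block, run for genotypes at 12 weeks only, changed no genotype call on a member there. It moved the Nr4a1 pairs of regions at 12 weeks from 9 to 12. The pairs added were PFC against HP, SSC against STR and TH against SN (adjusted p = 0.0281, 0.0226 and 0.0046). The block lost the call on Apold1 in 12-week STR (0.0503). Leaving out WT libraries in the region pairs, removing libraries that stood apart from the age, likeness, list and correlation results, leaving out SSC HET 93 and HET 162, and all alternatives for gene lists were chosen after seeing the data. The tested correlations of Nr4a2 with marker scores in SN and STR were too.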
